A study of Mus musculus with 24 samples.

Results

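The genes described here are 10 that direct T helper 1 (Th1) cells, the CD4+ T cells that make interferon gamma: 4 transcription factors, Tbx21, Eomes, Hlx and Runx3, and 6 receptor genes, Il12rb1, Il12rb2, Il18r1, Il18rap, Il27ra and Cxcr3. They were chosen by name, from what the genes are known to do and with earlier results of these data known, and are 10 of the 22009 named genes that the table holds. The RNA came from CD4+ T cells of the spleen of adult wild-type C57BL/6 mice, isolated by magnetic negative selection and pooled from several animals. The 24 libraries were 2 of resting, unstimulated cells, 18 of cultures sampled every 4 h from 4 to 24 h, and 4 of cells stimulated for 16 h before actinomycin, an inhibitor of transcription, was present for 0, 1, 2 or 4 h. All cultures of the time course received anti-CD3 and anti-CD28. Th0 cultures had no further addition. The additions in Th1 conditions were recombinant IL-12 and an antibody to IL-4, and those in Th2 conditions were recombinant IL-4 and antibodies to IFN-γ and IL-12. The labels of the actinomycin libraries do not give a skewing condition. Each combination of condition and time was sequenced once, so the time points stand in for replicates when conditions are compared. The paper describes cells being taken out of the cultures every 4 h, and whether each library had a culture of its own is not stated. The tests treat the libraries of a condition as independent. They compare series of libraries from 1 cell pool, and their p-values measure no spread between replicate cultures or between mice.

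T helper cells choose between fates soon after their antigen receptor is engaged. T-bet, the product of Tbx21, is the factor that defines the Th1 fate, and it switches on the IFN-γ gene together with Runx3 and the homeobox factor Hlx. Eomesodermin, the product of Eomes, is a T-box factor closely related to T-bet that is best known from cytotoxic T cells and natural killer (NK) cells. IL-12 acts through a receptor of the chains IL-12Rβ1 and IL-12Rβ2 and through STAT4. IL-18 acts through IL-18R1 and the accessory chain encoded by Il18rap, and through MyD88. IL-27 acts through IL-27Rα paired with gp130, the product of Il6st, and CXCR3 draws Th1 cells towards the interferon-induced chemokines CXCL9, CXCL10 and CXCL11.

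The promoter sequences of 4 members that differed between Th1 and Th2 cultures are shown, so that letters read by STAT and RUNX factors, which the cytokines used here act through or which pair with T-bet, can be seen in place. Sequences are from RefSeq on GRCm38.p6, run from 250 bases before to 50 bases after an annotated start site on the gene's strand, and have in capitals each match on either strand to TTCNNNGAA, the letters of a STAT site, or TGTGGT, the letters of a RUNX site. AGGTGT, the core of a T-box site, was also searched and had no match in any of the 11 windows of the 8 members matched. No match shown here overlaps another.
Tbx21 (chr11:97115282-97115581, minus strand): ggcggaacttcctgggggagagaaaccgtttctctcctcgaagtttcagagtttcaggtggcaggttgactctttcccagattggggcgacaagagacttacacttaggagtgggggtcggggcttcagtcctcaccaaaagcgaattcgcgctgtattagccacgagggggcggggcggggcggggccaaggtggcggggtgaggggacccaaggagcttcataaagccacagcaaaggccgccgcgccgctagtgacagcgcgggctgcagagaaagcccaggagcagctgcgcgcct
Il12rb2 (chr6:67376139-67376438, minus strand): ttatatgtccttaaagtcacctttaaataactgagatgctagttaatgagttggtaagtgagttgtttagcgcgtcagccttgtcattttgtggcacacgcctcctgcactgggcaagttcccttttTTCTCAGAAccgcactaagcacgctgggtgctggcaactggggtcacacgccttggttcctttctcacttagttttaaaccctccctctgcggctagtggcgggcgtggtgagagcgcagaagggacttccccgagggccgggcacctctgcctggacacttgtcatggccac
Il18r1 (chr1:40465756-40466055, plus strand, the third of its 3 windows): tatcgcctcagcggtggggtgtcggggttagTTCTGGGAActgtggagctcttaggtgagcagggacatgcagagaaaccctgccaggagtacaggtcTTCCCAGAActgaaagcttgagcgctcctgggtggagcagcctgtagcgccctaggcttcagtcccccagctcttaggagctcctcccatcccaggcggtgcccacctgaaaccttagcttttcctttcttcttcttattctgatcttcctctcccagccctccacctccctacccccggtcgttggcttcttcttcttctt
Il18rap (chr1:40515112-40515411, plus strand): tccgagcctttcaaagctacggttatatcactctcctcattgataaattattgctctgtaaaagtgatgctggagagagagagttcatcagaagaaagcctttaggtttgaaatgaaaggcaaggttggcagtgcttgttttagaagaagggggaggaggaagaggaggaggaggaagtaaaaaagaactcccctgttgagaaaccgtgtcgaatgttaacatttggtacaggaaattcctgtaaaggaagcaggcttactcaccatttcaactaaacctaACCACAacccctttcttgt
The Il12rb2 window held 1 STAT match, 123 to 115 bases before the start site. The Il18r1 window shown held 2 STAT matches, and the other windows of this gene held none, although the second held 1 RUNX match. Il18rap had 1 RUNX match just after its start site, and Tbx21 had no match to any of the 3 motifs. Of the members not shown, Cxcr3 had 2 RUNX matches, the upstream one of the 2 Runx3 windows had 2, and Eomes and Hlx had none. Of all 32851 promoter windows of this length, 8.30% held the STAT letters, 13.7% the T-box letters and 16.8% the RUNX letters. These matches describe the sequence only and are not measured binding sites.

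Levels are given as RPKM, the read number of a gene scaled to its transcript length and to the mapped reads of the library, which allows levels of different genes to be set side by side. The libraries held 17512385 to 33017133 mapped reads, as recovered from the steps between low values with the most frequent step taken as 2 reads. The summed level of the 6 CD4+ T-cell markers lay between 901 and 1311 RPKM in every library of the time course, and none of the 6 was at 0. Single markers of this list did change. Against rest, Cd4 was called lower at 4 and 12 h, Il7r lower at 24 h and Cd5 higher at 12 h. Il7r was also called higher in Th1 than in Th2 cultures. Markers of other cells were also present, and several of these lists were lower in culture. The 8 monocyte and macrophage markers summed to 563 and 584 RPKM in the resting libraries and to 8.0 to 12.5 RPKM at 24 h, the 3 measured red-cell markers to 9419 and 10506 RPKM and then to 35.0 to 52.3 RPKM, and the 7 NK-cell markers to 176 and 179 RPKM and then to 28.3 to 61.6 RPKM. The 5 B-cell markers summed to 62.2 and 72.3 RPKM at rest and to 8.8 to 18.2 RPKM at 24 h. The 6 dendritic-cell markers did not share this course. They summed to 54.6 and 56.8 RPKM at rest and to 78.0, 68.2 and 42.4 RPKM in Th0, Th1 and Th2 cultures at 24 h. Of the 3 tested, Itgax and Siglech were called lower at 24 h, and Bst2 had an estimate above 0. In bulk RNA, fewer cells of a type and less RNA per cell cannot be told apart. The part of these changes in the differences from resting cells below was not tested, and since the resting and cultured libraries also carry different tags in their titles, activation and preparation cannot be told apart in those differences.

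At rest the order of the members ran from Il27ra, at a mean of 81.6 RPKM, through Il18r1 at 26.1, Runx3 at 25.7, Cxcr3 at 20.3, Il18rap at 14.4, Eomes at 8.38, Tbx21 at 7.47, Il12rb1 at 5.33 and Il12rb2 at 3.82 RPKM to Hlx at 0.34 RPKM. Of the neighbours in this order, Il18r1 and Runx3 did not differ beyond the spread of the 2 resting libraries, with an SD of 1.44 RPKM for Il18r1 and of 3.07 RPKM for Runx3. After 24 h in Th1 conditions the order had changed. Il12rb1 was then highest at 56.9 RPKM, followed by Tbx21 at 47.0, Il27ra at 38.2, Runx3 at 21.8, Eomes at 18.3 and Il12rb2 at 16.4 RPKM, with Cxcr3 at 6.96, Il18r1 at 6.58 and Il18rap at 6.42 RPKM close together and Hlx at 0.14 RPKM.

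Differences were tested with limma on log2(RPKM + 0.5) over every gene whose mean reached 1 RPKM, and a gene was called where the Benjamini-Hochberg adjusted p was under 0.05 and the change at least 2-fold. Fold changes on this scale understate those of genes at low level. Of the 10 members, 9 passed the filter on low values. The exception was Hlx, which was between 0 and 0.825 RPKM in all 24 libraries, with its highest value in the Th2 culture at 4 h, 0.465 and 0.220 RPKM at rest, and 0.141 RPKM in the Th1 culture at 24 h. Levels this low were not tested.

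Tbx21 was at its highest late in the Th0 and Th1 cultures, and late in the Th2 cultures it lay under its resting level. This gene (ENSMUSG00000001444.2, chr11:97098071-97115331 on GRCm38) stood at 7.49 and 7.46 RPKM in the resting libraries. In Th1 cultures it was at 16.5, 20.2, 21.9, 29.1, 44.3 and 47.0 RPKM at 4, 8, 12, 16, 20 and 24 h. In Th0 cultures the values at the same times were 11.7, 11.0, 15.0, 22.6, 36.1 and 41.0 RPKM. In Th2 cultures they were 9.70, 8.48, 5.37, 4.04, 4.30 and 3.50 RPKM, the last 4 of them below rest. Neither the Th1 nor the Th0 cultures overlapped the Th2 cultures.

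Over the 6 time points, Tbx21 was higher in Th1 than in Th2 cultures by 2.23 (SE 0.33) on the log2 scale, with an adjusted p of 0.000248 in limma. It was lower in Th2 than in Th0 cultures, by -1.78 (SE 0.33, adjusted p = 0.0013, limma). Between Th1 and Th0 the difference was 0.45 (SE 0.33, adjusted p = 0.518, limma) and was not called, although Th1 was the higher at 6 of 6 times and the 95% counting interval of the Th1 to Th0 ratio lay above 1 at each of them. The spread in this fit also holds the change of the Th2 cultures over time. Over the alternatives run, this difference ranged from 0.34 to 0.50, under 2-fold, and its adjusted p from 0.0188 to 0.753 in limma. The ratio of Th1 to Th0 was largest at 8 h, at 1.84 (95% interval 1.61 to 2.09), and smallest at 24 h, at 1.15 (1.07 to 1.23). These intervals cover counting error only and treat 2 reads as 1 fragment. Against Th2 the ratio widened throughout, from 1.71 (1.46 to 2.00) at 4 h to 4.08 at 12 h and 13.4 (11.1 to 16.4) at 24 h. The slope of this difference was 0.150 per h on the log2 scale (SE 0.012, adjusted p = 2.73e-05, limma).

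Against resting cells, Tbx21 at 24 h differed by 1.32 (SE 1.04, adjusted p = 0.275, limma), a fit in which the spread at a time point holds the difference between conditions. Without the Th2 cultures the same difference was 2.48 (SE 0.27) with an adjusted p of 1.4e-05 in limma, and at 12 h it was 1.22 (SE 0.27) with an adjusted p of 0.00226. In a list of 10897 genes compared by Pearson correlation over the 20 libraries of the time course, the genes most like Tbx21 were Tbkbp1 (r = 0.936), the interferon regulatory factor gene Irf8 (r = 0.912) and Il2rb, a chain of the IL-2 receptor (r = 0.860). Tbkbp1 lies on the same chromosome (chr11:97136171-97151495), next to Tbx21 and on the same strand. These correlations are descriptions, since the cultures share a cell pool and a common course of activation, and the resting libraries carry a different tag.

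Eomes behaved differently from Tbx21. It (ENSMUSG00000032446.14, chr9:118478212-118486132) was at 8.56 and 8.21 RPKM at rest and was lowest in Th1 cultures for most of the course. Th1 values were 6.57, 7.56, 9.01, 12.9, 16.7 and 18.3 RPKM from 4 to 24 h, those of Th0 were 13.8, 13.5, 14.6, 19.9, 29.2 and 25.4 RPKM, and those of Th2 were 15.4, 13.9, 15.1, 16.7, 14.9 and 11.6 RPKM. Th1 was under Th0 at 6 of 6 times, and under Th2 at 4, 8, 12 and 16 h but above it at 20 and 24 h.

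The Th1 minus Th0 difference of Eomes was -0.72 (SE 0.18, adjusted p = 0.0428, limma), under the 2-fold limit, and its adjusted p ranged from 0.00072 to 0.162 over the alternatives run. Th1 and Th2 differed by -0.38 (SE 0.18, adjusted p = 0.191, limma) over all times, while the slope of that difference was 0.0887 per h (SE 0.011, adjusted p = 0.00156, limma) as it passed from below 0 to above 0. The slope lost its call without the 24 h libraries, at 0.0788 per h (adjusted p = 0.067, limma). Against resting cells Eomes was higher at 24 h by 1.02 (SE 0.39, adjusted p = 0.0284, limma), a call lost without either resting library, with an adjusted p of 0.0904 and 0.109 in limma. It was also lost without the Th0 cultures, at 0.76 (adjusted p = 0.116, limma), and without the Th1 cultures, where 0.99 was under 2-fold. The genes most like Eomes were Eno1 (r = 0.831), which encodes the glycolytic enzyme enolase, Gm17669 (r = 0.824) and Nt5c (r = 0.822).

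Runx3 was lower in culture than at rest, and no difference between conditions was called. This gene (ENSMUSG00000070691.10, chr4:135120652-135177990) was at 27.9 and 23.5 RPKM at rest. Th0 cultures ranged from 10.7 to 17.9 RPKM with a median of 13.6, Th1 cultures from 11.4 to 21.8 RPKM with a median of 14.9, and Th2 cultures from 11.5 to 15.2 RPKM with a median of 12.8, so that all 18 cultures lay under both resting libraries while the conditions overlapped. The difference from resting cells was -0.83 (SE 0.16) at 4 h, -1.13 (SE 0.16, adjusted p = 1.96e-05, limma) at 12 h and -0.56 (SE 0.16) at 24 h, of which the 12 h value was called. Th1 and Th2 differed by 0.20 (SE 0.09, adjusted p = 0.181, limma). Cbfb, the partner that Runx3 binds DNA with, was between 65.9 and 99.1 RPKM in all libraries of the time course and was not called in any comparison. Esyt1 (r = 0.946), Wdr11 (r = 0.909) and Myo18a (r = 0.899) had the patterns most like Runx3.

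**Figure D1:**
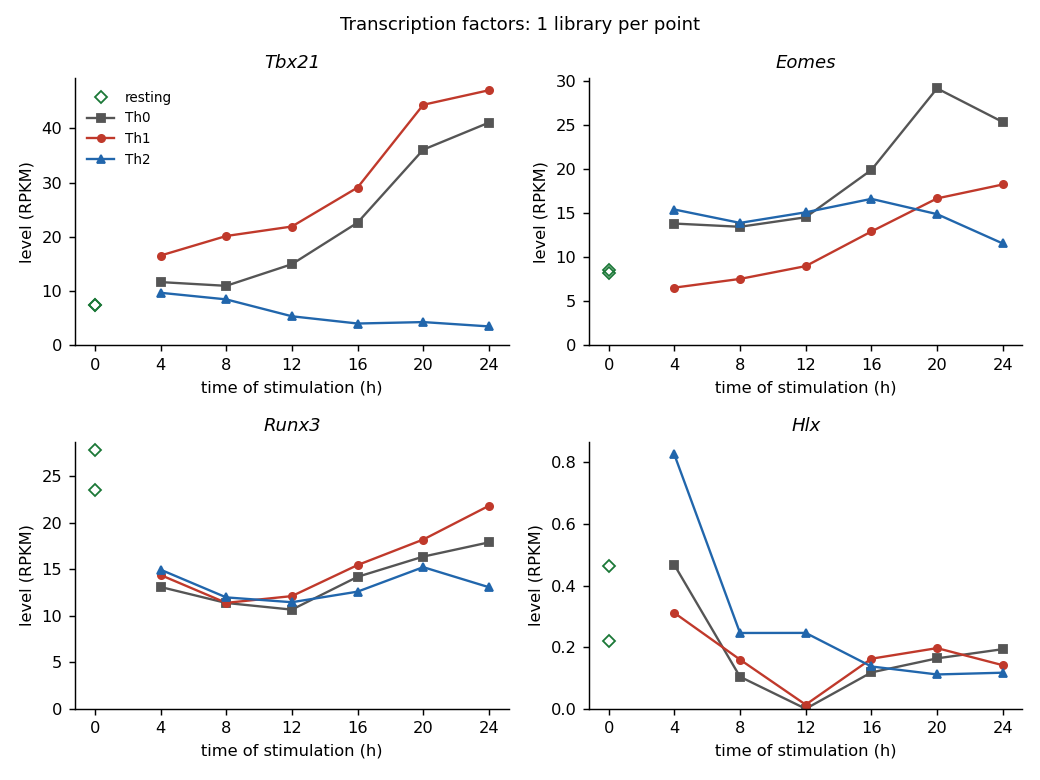
Level in RPKM (y axis, linear, from 0) of the 4 transcription factor genes against hours of stimulation (x axis), with 1 library per point, lines joining the cultures of a condition and open diamonds for the 2 resting libraries. Tbx21 separates into rising Th0 and Th1 lines and a falling Th2 line that ends at 3.50 RPKM, Eomes is lowest in Th1 until 16 h, Runx3 lies under the resting libraries in every culture, and Hlx stays under 1 RPKM.

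The chains of the IL-12 receptor took different courses. Il12rb1 (ENSMUSG00000000791.9, chr8:70808449-70821424), the chain that the IL-23 receptor also uses, was above its resting level in every condition from 8 h on. It was at 4.81 and 5.85 RPKM at rest and then at 5.26, 18.6, 22.4, 33.2, 51.9 and 56.9 RPKM in Th1 cultures from 4 to 24 h. Th0 values were 3.23, 9.53, 21.4, 29.6, 37.7 and 43.6 RPKM, and Th2 values were 2.80, 15.3, 14.4, 17.1, 21.7 and 20.7 RPKM. Th1 was the highest condition at 6 of 6 times, and from 12 h on Th2 was the lowest.

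Il12rb1 was higher than in resting cells by 1.75 (SE 0.42, adjusted p = 0.00194, limma) at 12 h and by 2.70 (SE 0.42, adjusted p = 4.04e-05, limma) at 24 h. The Th1 minus Th2 difference of 0.89 (SE 0.16, adjusted p = 0.00137, limma) was under 2-fold. Without the 8 h libraries it was 1.01 and was called, with an adjusted p of 3.85e-05 in limma, and from 12 to 24 h only it was 1.06. The ratio of Th1 to Th2 was 1.88 (95% counting interval 1.43 to 2.48) at 4 h, 1.22 (1.08 to 1.37) at 8 h and 2.76 (2.54 to 3.0) at 24 h. Th2 against Th0 gave -0.45 (SE 0.16, adjusted p = 0.0471, limma), also under 2-fold, and Th1 against Th0 gave 0.44 (SE 0.16, adjusted p = 0.198, limma). Over the alternatives run, the adjusted p of Th1 against Th0 ranged from 0.0496 to 0.432 in limma. Zbtb32 (r = 0.967), Tpm3-rs7 (r = 0.962) and Litaf (r = 0.940) were the genes most like it.

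Il12rb2 (ENSMUSG00000018341.12, chr6:67291318-67376188), which encodes the signalling chain that recruits STAT4, was nearly alike in the 3 conditions at 4 h and then parted. The resting libraries had 3.90 and 3.73 RPKM. At 4 h the Th0, Th1 and Th2 cultures had 12.0, 13.6 and 13.4 RPKM. From 8 to 24 h the Th1 values were 8.32, 6.84, 9.87, 11.8 and 16.4 RPKM, the Th0 values 8.92, 5.45, 6.77, 8.85 and 9.87 RPKM, and the Th2 values 3.84, 2.43, 2.25, 1.81 and 1.75 RPKM. Th0 and Th1 thus had their lowest value at 12 h and higher ones after it, while Th2 was under the resting level from 12 h on.

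Th1 exceeded Th2 in Il12rb2 by 1.60 (SE 0.26, adjusted p = 0.000596, limma), and Th2 was lower than Th0 by -1.27 (SE 0.26, adjusted p = 0.00267, limma). Th1 and Th0 differed by 0.33 (SE 0.26, adjusted p = 0.552, limma), with an adjusted p of 0.106 to 0.722 in limma over the alternatives run. The ratio of Th1 to Th2 grew from 1.02 at 4 h to 2.17 at 8 h and 9.41 at 24 h, and the slope of the difference was 0.137 per h (SE 0.014, adjusted p = 0.000335, limma). The STAT letters in the Il12rb2 promoter printed above are the only match of that window. At 4 h the difference from resting cells was 1.64 (SE 0.77, adjusted p = 0.115, limma), although each of the 3 cultures was over 3 times the resting level. At 24 h it was 0.76 (SE 0.77, adjusted p = 0.393, limma), and without the Th2 cultures 1.62 (adjusted p = 0.000112, limma), which was called. Fitted on the 4 h and resting libraries alone the 4 h difference had an SE of 0.14 and an adjusted p of 0.000384 in limma. The genes most like Il12rb2 were Ly6a (r = 0.903), Stat3 (r = 0.895) and the interferon-induced GTPase gene Irgm1 (r = 0.889), and the member most like it was Tbx21 (r = 0.811).

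Both chains of the IL-18 receptor were at their highest in the Th1 culture at 4 h, and each condition had less of both at 24 h than at 4 h. Il18r1 (ENSMUSG00000026070.15, chr1:40465552-40500854) and Il18rap (ENSMUSG00000026068.11, chr1:40515362-40551705) are neighbours on the plus strand. Il18r1 was at 27.2 and 25.1 RPKM at rest, and from 4 to 24 h at 34.6, 16.4, 10.8, 11.6, 7.54 and 6.58 RPKM in Th1, 19.6, 14.8, 8.15, 5.19, 3.29 and 3.48 RPKM in Th0, and 13.5, 5.86, 3.72, 2.48, 1.59 and 1.70 RPKM in Th2 cultures. The order Th1 over Th0 over Th2 held at 6 of 6 times.

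For Il18r1 the Th1 minus Th2 difference was 1.64 (SE 0.12, adjusted p = 1.21e-07, limma). Against Th0, Th1 was higher by 0.72 (SE 0.12, adjusted p = 0.00304, limma) and Th2 lower by -0.91 (SE 0.12, adjusted p = 5.47e-05, limma), both under 2-fold. With a pseudocount of 0.1 RPKM the Th2 value was -1.002 and was called. Against resting cells it was lower by -1.84 (SE 0.66, adjusted p = 0.0232, limma) at 12 h and by -2.75 (SE 0.66, adjusted p = 0.00164, limma) at 24 h. The 12 h call was lost without either resting library, with adjusted p of 0.0981 and 0.0801 in limma, and without the Th0 cultures, at 0.0793.

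Il18rap, the accessory chain needed for signalling, was at 14.0 and 14.8 RPKM at rest. Th1 values were 28.9, 17.1, 11.9, 10.5, 9.65 and 6.42 RPKM, Th0 values 14.0, 10.3, 6.18, 5.31, 3.17 and 3.31 RPKM, and Th2 values 12.6, 5.14, 5.21, 3.50, 2.59 and 2.47 RPKM. Th1 was again the highest and Th2 the lowest at each of the 6 times. The Th1 minus Th2 difference was 1.39 (SE 0.11, adjusted p = 2.28e-07, limma). Th1 exceeded Th0 by 0.98 (SE 0.11, adjusted p = 8.11e-05, limma), just under 2-fold, and it was called without the 8 h libraries, at 1.03, and without the 24 h libraries, at 1.00. At 24 h Il18rap was lower than in resting cells by -1.80 (SE 0.57, adjusted p = 0.0113, limma). That call was lost without 1 of the resting libraries (adjusted p = 0.0585, limma) and without the Th0 cultures (adjusted p = 0.0677, limma). The slopes of the Th1 minus Th2 difference, 0.029 per h for Il18r1 and 0.0059 per h for Il18rap, were not called (adjusted p = 0.361 and 0.88, limma).

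Each IL-18 receptor gene was among the 3 genes most like the other (r = 0.963). The rest of the lists were Fgl2 (r = 0.966) and Klrd1 (r = 0.962) for Il18r1, and Klrg1 (r = 0.951) and Klrc1 (r = 0.944) for Il18rap. Klrd1, Klrg1 and Klrc1 encode lectin-like receptors best known from NK cells, which also carry the IL-18 receptor, T-bet and Eomes. The 7 NK-cell markers summed to 109, 238 and 182 RPKM in the Th0, Th1 and Th2 cultures at 4 h and to 28.3, 53.0 and 61.6 RPKM at 24 h, and none was at 0 throughout. Of the 7, Prf1 and Ncr1 were called higher in Th1 than in Th2 cultures, and the median difference of the list was 0.83. Gzma, Prf1 and Ncr1 were called higher in Th1 than in Th0 cultures, with a median difference of 0.75. Gzma was also called higher in Th2 than in Th0 cultures. Its level was higher in Th1 than in Th2 from 4 to 20 h, while at 24 h it was 22.6 RPKM in Th1 and 42.7 RPKM in Th2. Ncr1, an activating receptor of NK cells, was at 8.4 and 8.7 RPKM at rest, between 3.0 and 12.2 RPKM in Th1, between 1.2 and 4.4 RPKM in Th0 and between 1.5 and 4.3 RPKM in Th2 cultures. Klrb1c, which encodes the NK receptor NK1.1, ran the other way, with 5.30 RPKM in Th1 and 10.4 RPKM in Th2 cultures at 4 h and 1.07 and 3.13 RPKM at 24 h, and was lower in Th1 than in Th2 at each of the 6 times. The 2 CD8 T-cell markers summed to 12.4 and 12.7 RPKM at rest and to 8.23, 7.44 and 11.9 RPKM in Th0, Th1 and Th2 cultures at 24 h. The part of NK cells or CD8 T cells in the levels of Il18r1, Il18rap, Tbx21 and Eomes was not tested.

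**Figure D2:**
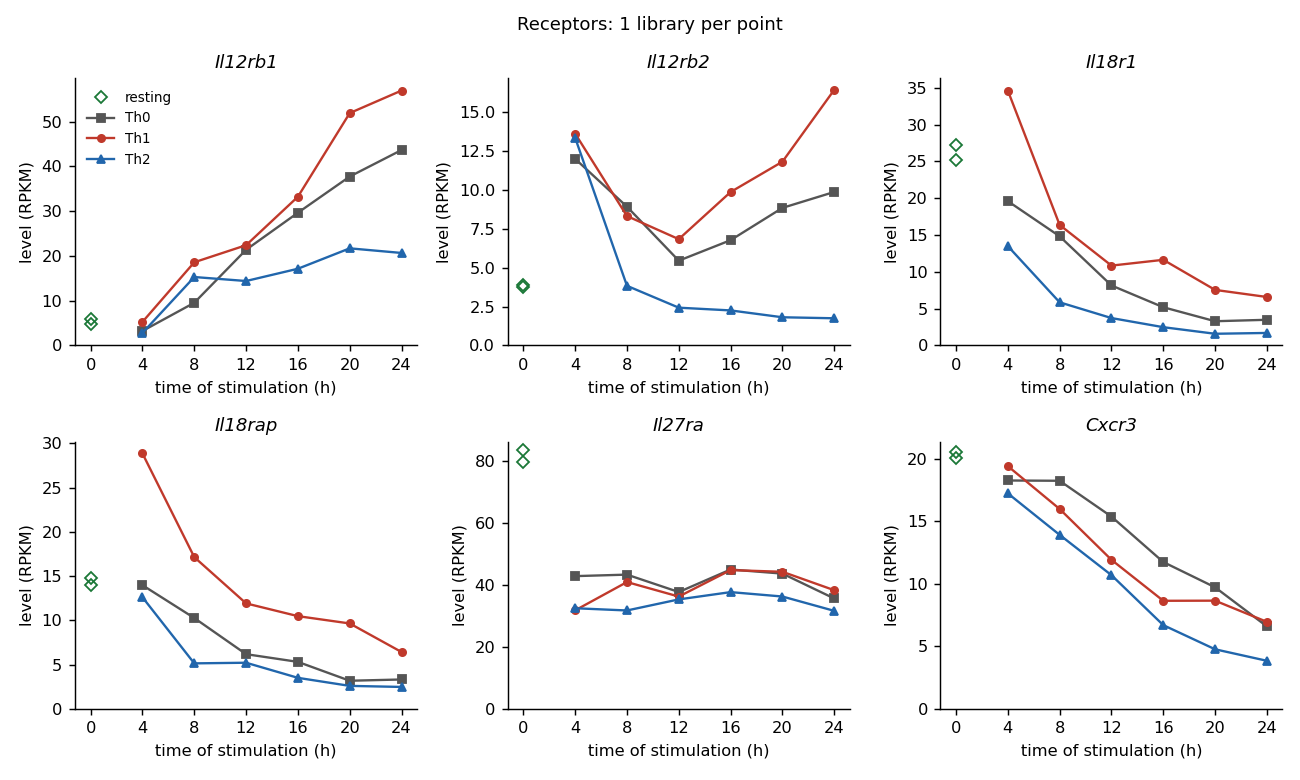
Level in RPKM (y axis, linear, from 0) of the 6 receptor genes against hours of stimulation (x axis), with 1 library per point, lines joining the cultures of a condition and open diamonds for the 2 resting libraries. Il12rb1 climbs to 20.7 RPKM or more by 24 h, the Il12rb2 lines start together at 4 h and part, both IL-18 receptor genes slope down with Th1 on top, Il27ra lies well under the resting libraries in each condition, and Cxcr3 slopes down with Th2 lowest.

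Il27ra was the member with the most even level in culture. It (ENSMUSG00000005465.9, chr8:84030294-84042589) was at 79.7 and 83.5 RPKM at rest. Th0 cultures ranged from 35.6 to 44.9 RPKM with a median of 43.0, Th1 cultures from 31.7 to 44.7 RPKM with a median of 39.5, and Th2 cultures from 31.6 to 37.6 RPKM with a median of 33.8. All cultures were therefore far under the resting libraries while the conditions overlapped. It was lower than in resting cells by -1.20, -1.15 and -1.21 (SE 0.15) at 4, 12 and 24 h, with adjusted p of 2.06e-05, 9.49e-06 and 4.8e-06 in limma. Th2 was lower than Th0 at 6 of 6 times, by -0.27 (SE 0.07, adjusted p = 0.0129, limma), which is under 2-fold. Th1 and Th2 differed by 0.20 (SE 0.07, adjusted p = 0.0987, limma). Il6st, which encodes gp130, was between 23.2 and 55.1 RPKM over the time course and was not called in any comparison. The genes most like Il27ra were Gltscr1l (r = 0.961), Sh2d3c (r = 0.959) and Stk10 (r = 0.956).

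Cxcr3 was at its lowest late in culture. This gene (ENSMUSG00000050232.6, chrX:101731535-101734269) was at 20.5 and 20.1 RPKM at rest. From 4 to 24 h the Th1 values were 19.4, 16.0, 11.9, 8.64, 8.65 and 6.96 RPKM, the Th0 values 18.3, 18.2, 15.4, 11.7, 9.72 and 6.59 RPKM, and the Th2 values 17.2, 13.9, 10.7, 6.69, 4.76 and 3.84 RPKM. Th2 was the lowest condition at 6 of 6 times, and Th0 was the highest from 8 to 20 h. At 24 h Cxcr3 was lower than in resting cells by -1.77 (SE 0.28, adjusted p = 4.07e-05, limma). Th2 was lower than Th0 by -0.57 (SE 0.11, adjusted p = 0.00142, limma), and Th1 differed from Th2 by 0.41 (SE 0.11, adjusted p = 0.02, limma), both under 2-fold. Th1 and Th0 differed by -0.16 (SE 0.11, adjusted p = 0.479, limma), with Th1 above Th0 at 4 and 24 h only. The counting interval of the Th1 to Th0 ratio lay below 1 at 12 and 16 h and included 1 at 4, 8, 20 and 24 h. The counting interval of the Th1 to Th2 ratio included 1 at 4, 8 and 12 h and lay above 1 from 16 h on, with a ratio of 1.81 (1.39 to 2.38) at 24 h. Map4k3 (r = 0.960), Cpne8 (r = 0.959) and Ifi27 (r = 0.959) had the most similar patterns.

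Counted together, 4 of the 9 members tested were higher in Th1 than in Th2 cultures (Tbx21, Il12rb2, Il18r1 and Il18rap) and none was lower, against 1.39% of all 10737 genes called higher and 0.568% called lower. The median difference of the 9 was 0.89, and that of all genes -0.02. Th2 against Th0 called 2 lower (Tbx21 and Il12rb2) and none higher, against 1.83% lower and 0.186% higher among all genes. All 9 estimates were below 0 in that comparison, with a median of -0.45 against 0.00 for all genes. Th1 against Th0 called no member in limma, where 0.177% of genes were called higher and 0.317% lower. In that comparison 4 of the 9 (Eomes, Il12rb1, Il18r1 and Il18rap) had an unadjusted p under 0.05 in limma, as did 16.4% of all genes. Of these, Il18rap and Il18r1, higher in Th1, and Eomes, lower in Th1, were under 2-fold but had an adjusted p of 8.11e-05, 0.00304 and 0.0428 in limma. The comparisons share libraries and are not independent. For the slope of the Th1 minus Th2 difference, 3 of the 9 were called rising (Tbx21, Il12rb2 and Eomes) and none falling, against 0.689% and 0.261% of genes.

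**Figure D3:**
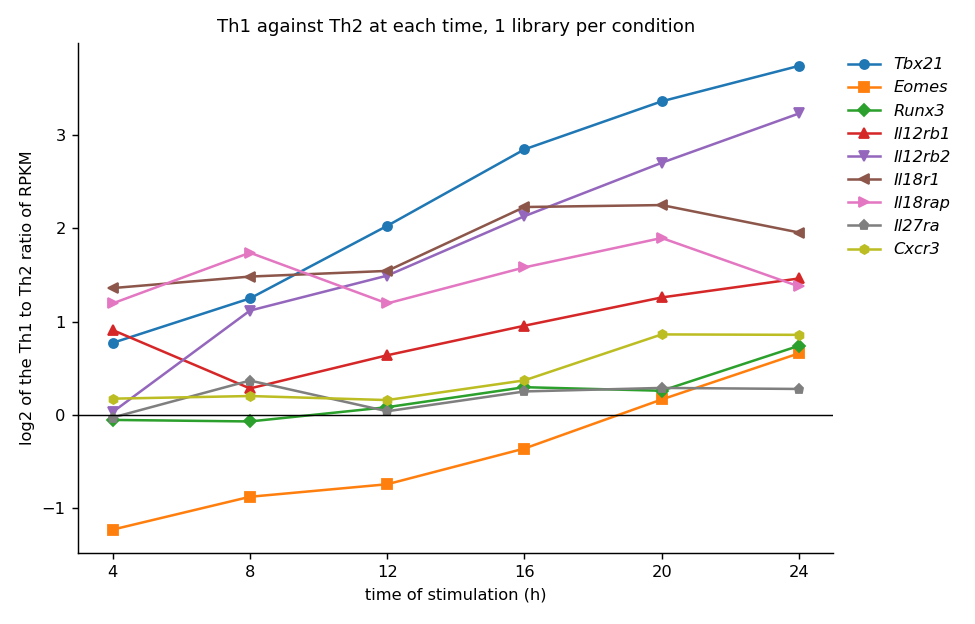
Log2 of the ratio of RPKM in Th1 to that in Th2 cultures (y axis) at each hour of stimulation (x axis) for the 9 members tested, with 1 library per condition and the line at 0 marking equal levels. The Tbx21 ratio climbs from 1.71 to 13.4 and that of Il12rb2 from 1.02 to 9.41, Eomes crosses 0 between 16 and 20 h, and the IL-18 receptor genes are above 0 at all times.

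**Figure D4:**
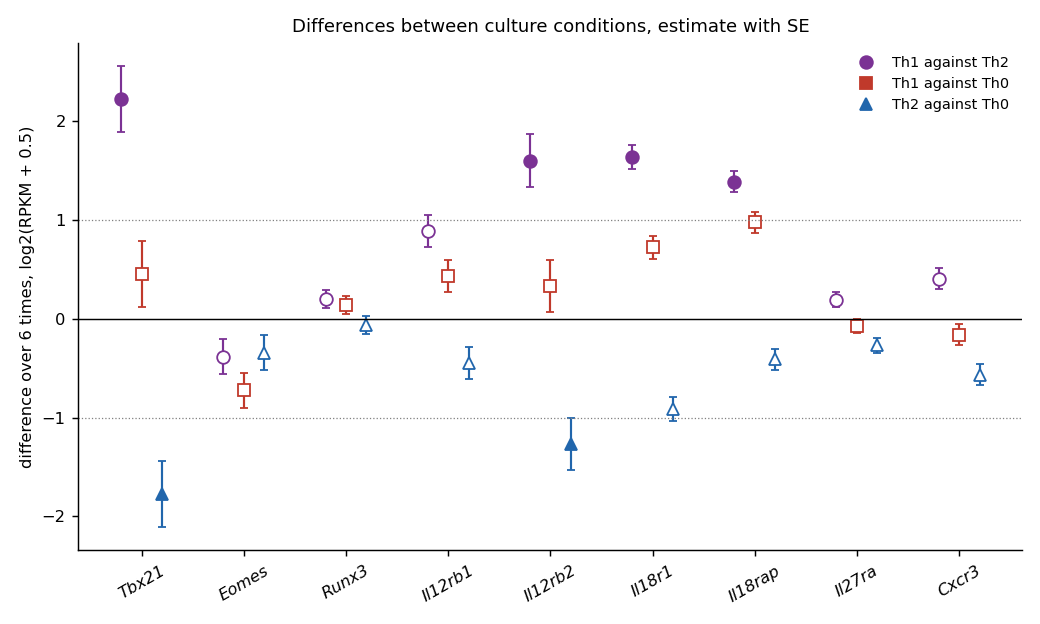
Difference between conditions over the 6 times on the log2(RPKM + 0.5) scale (y axis) for the 9 members tested (x axis), as limma estimates with bars of 1 SE, filled where called and open where not, and dotted lines at a 2-fold change. Filled symbols stand at Tbx21 and Il12rb2 for Th1 against Th2 and for Th2 against Th0, and at Il18r1 and Il18rap for Th1 against Th2 only.

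Against resting cells, 1 member (Il27ra) was called lower at 4 h and none higher, where 7.97% of all 10897 genes were lower and 2.61% higher. At 12 h, 3 were lower (Il27ra, Il18r1 and Runx3) and 1 higher (Il12rb1), against 16.4% and 10.7% of genes. At 24 h, 4 were lower (Il27ra, Il18r1, Il18rap and Cxcr3) and 2 higher (Il12rb1 and Eomes), against 17.4% and 12.7% of genes. All 4 called lower at 24 h were receptor genes, as are 6 of the 9 members tested, and neither chain of the IL-12 receptor was among them. The transcription factor gene Runx3 was also lower at 24 h, by -0.56 (adjusted p = 0.00619, limma), and was not called because this is under 2-fold.

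Other genes of the same pathways were read from fixed lists. Among 9 ligand genes, 4 were tested between conditions and 3 were higher in Th1 than in Th2 cultures. These were Cxcl10 (3.79, SE 0.11, adjusted p = 1.84e-12, limma) and Cxcl9 (2.67, SE 0.17, adjusted p = 2.24e-08, limma), which are ligands of CXCR3, and Ifng (2.49, SE 0.26, adjusted p = 7.09e-06, limma). Ifng was at 29.7 and 28.5 RPKM at rest, between 206 and 500 RPKM in Th1, between 14.9 and 94.5 RPKM in Th0 and between 60.5 and 75.0 RPKM in Th2 cultures. The Th1 cultures thus did not overlap the others in Ifng. Genes for IL-12, IL-18 and IL-27 were low in culture. Il12b and Il27 stayed under 1 RPKM in all libraries, and Il12a reached 2.9 RPKM in the Th2 culture at 24 h. Ebi3, which encodes the other chain of IL-27, was between 1.33 and 3.19 RPKM in all libraries. Il18 was at 11.3 and 13.6 RPKM at rest and at most 2.1 RPKM in culture.

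Among the signal transducers, Stat4, which acts below the IL-12 receptor, was not called between any conditions, with a Th1 minus Th2 difference of -0.15 (SE 0.13, adjusted p = 0.526, limma). It was at 42.3 and 43.8 RPKM at rest, at 80.4, 67.7 and 103 RPKM in Th0, Th1 and Th2 cultures at 4 h, and at 34.9, 24.6 and 36.5 RPKM at 24 h. Of 14 partners and opposing factors, 13 were tested between Th1 and Th2 cultures. Irf1, an interferon-induced factor, was higher in Th1 than in Th2 (1.96, SE 0.13, adjusted p = 4.97e-08, limma). It was also called lower in Th2 than in Th0, and was not called between Th1 and Th0. Its level in Th0, Th1 and Th2 cultures was 643, 592 and 232 RPKM at 4 h and 219, 200 and 42.4 RPKM at 24 h. Gata3, the factor that defines Th2 cells, was lower in Th1 than in Th2 (-1.60, SE 0.14, adjusted p = 1.24e-06, limma). Gata3 was between 7.2 and 11.0 RPKM in Th1 and between 18.8 and 34.4 RPKM in Th2 cultures, which did not overlap. Of 14 Th1 effector genes, 5 were higher in Th1 than in Th2 and none lower. Those called included Ifng and Lta, which encodes lymphotoxin alpha (1.19, SE 0.29, adjusted p = 0.0134, limma).

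In the 4 actinomycin libraries, Tbx21 and Cxcr3 had the lowest slopes of the 9 members and Il18r1 the highest. Tbx21 was at 10.5, 7.68, 2.94 and 3.18 RPKM after 0, 1, 2 and 4 h, a slope of -0.449 per h on log2(RPKM + 0.1), and 0.766% of the 10571 genes whose mean reached 1 RPKM had a lower slope. Cxcr3 was at 6.85, 7.12, 4.59 and 2.75 RPKM, a slope of -0.351 per h with 2.33% of genes lower. Their slopes had two-sided exact permutation p of 0.167 and 0.0833, and 0.0833 is the smallest p that 4 time points allow, so no slope could pass the threshold. The step between 1 and 2 h held most of the decline of Tbx21, and the 4 h library was no lower than that at 2 h. Without the 4 h library the slope of Tbx21 was -0.904 per h and that of Cxcr3 -0.283 per h.

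Of the other members, Il12rb1 went from 21.4 to 18.5 RPKM and Eomes from 9.06 to 6.94 RPKM between 0 and 4 h, with slopes of -0.0699 and -0.110 per h. Il12rb2 was at 3.93, 3.99, 3.79 and 3.95 RPKM, with a slope of -0.0014 per h. Il18r1 went from 2.68 to 5.88 RPKM, Il18rap from 3.60 to 5.10 RPKM, Runx3 from 10.2 to 13.3 RPKM and Il27ra from 29.5 to 37.6 RPKM, with slopes of 0.327, 0.184, 0.104 and 0.0986 per h. Without the 4 h library the slope of Il12rb1 was -0.230, that of Eomes -0.199, that of Il18rap 0.314, that of Runx3 0.0413 and that of Il12rb2 -0.0267 per h, and that of Il27ra turned to -0.0313 per h. RPKM is relative to all mapped reads, and the median slope of all genes was 0.0024 per h, so that a slope above 0 is a growing share of the RNA that is left. At 0 h Tbx21 lay between the 16 h values of the Th2 and Th0 cultures, and Il18r1 was at 2.68 RPKM where the 16 h cultures ranged from 2.48 to 11.6 RPKM. The NK-cell markers summed to 9.5 to 15.9 RPKM in these libraries, under every culture of the time course. The 8 monocyte and macrophage markers summed to 54.7 to 77.4 RPKM there. Their highest sums in Th0, Th1 and Th2 cultures, at 4 h, were 57.3, 46.3 and 77.8 RPKM. Lyz2 of this list was at 45.9, 49.8, 60.0 and 21.5 RPKM after 0, 1, 2 and 4 h in actinomycin. The 16 h Th0, Th1 and Th2 cultures had 15.5, 15.1 and 4.03 RPKM. Cd68 of the same list went from 3.82 to 30.5 RPKM between 0 and 4 h in actinomycin. The part of other cells in the slopes was not tested.

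**Figure D5:**
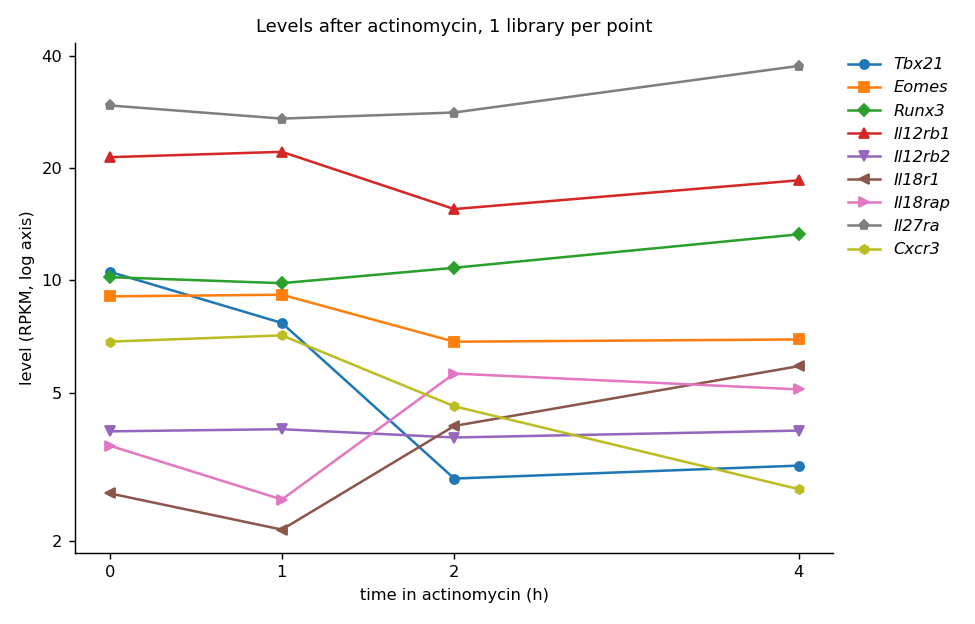
Level in RPKM (y axis, log scale) of the 9 members whose mean reached 1 RPKM against hours in actinomycin (x axis), with 1 library per point. Tbx21 goes from 10.5 to 3.18 RPKM and Cxcr3 from 6.85 to 2.75 RPKM, Il12rb2 is level, and Il18r1 ends higher than it began.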

How the data were processed

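RNA from 24 libraries of splenic CD4+ T cells was sequenced. Values were used as deposited by the authors, in RPKM per gene; the submitters' processing notes name BWA and GRCm38, and their role, versions and counting settings are not given in the sources used here. All 24 columns matched 1 library each. Mapped reads per library were recovered from the steps between low values, with the most frequent step taken as 2 reads. On that setting 59.4% of 2396 single-transcript genes were whole within 0.01 reads. The setting itself makes 2 reads frequent (2704 values, with 1590 of 1 read). Above that, even read numbers were more frequent than the odd number before them (1408 values of 4 reads and 853 of 3, 836 of 6 and 629 of 5). Therefore 95% intervals, exact Poisson for a level and conditional binomial for a ratio, were computed on reads divided by 2. They are given only for Tbx21, Il12rb1, Il27ra and Cxcr3, the members whose values were whole reads. Tests used limma 3.58.1 in R 4.3.3 with an intensity trend on log2(RPKM + 0.5), over genes whose mean reached 1 RPKM, with Benjamini-Hochberg adjustment. Time points against rest were fitted on 20 libraries with time as the factor. Conditions were fitted on 18 cultures with time as a factor, and the slope of the Th1 minus Th2 difference on the same 18, called at 2-fold over 20 h. The scripts were tested on simulated data. Slopes in actinomycin were least-squares fits with exact permutation p. The named genes were the 10 members, the 3 nearest genes of each by Pearson r, their partners (Ifng, Stat4, Gata3, Cbfb and Il6st among them), and up to 3 genes of each pathway list with the largest called Th1 minus Th2 difference, of which some are not reported here. Members and lists were chosen with earlier results of these data known. An unnamed row was left out. Alternatives changed the pseudocount, filter, scaling, variance trend, libraries in the fit, or left out libraries.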

Additional observations from a re-analysis of the deposited data

Results flagged for a closer look

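For 3 members the difference between Th1 and Th2 cultures was not the same at all times, by limma's test of its slope over the 18 cultures, in log2 units per hour. The slope was 0.150 per h (SE 0.012, adjusted p = 2.73e-05, limma) for Tbx21 and 0.137 per h (SE 0.014, adjusted p = 0.000335, limma) for Il12rb2, and Th1 was above Th2 at 6 of 6 times for both. It was 0.0887 per h (SE 0.011, adjusted p = 0.00156, limma) for Eomes, where Th1 was above Th2 at 2 of 6 times, the last ones.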

How the results depend on the processing

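Of 1209 values recomputed with 1 choice changed, 1153 kept their verdict and 56 did not. For the named genes, 11 calls were lost and 14 gained. The number of members called higher than at rest went at 4 h from 0 to 1 (Il12rb2) with quantile normalization, with only the libraries compared, and when libraries were left out in turn (range 0 to 1). At 12 h it was 1, and 1 to 2 with libraries left out. At 24 h it was 2, then 1 with a pseudocount of 1 RPKM, which left Eomes under 2-fold, and 1 to 4 with libraries left out, the highest without the Th2 cultures. For Th1 against Th0 it was 0, then 1 (Il18rap) with a pseudocount of 0.1 RPKM and from 12 to 24 h only, and 0 to 1 with time points left out. Uncalled values that changed sign were Il27ra for Th1 against Th0 from 12 to 24 h only (0.015), and, with libraries left out, Il18rap at 4 h (-0.11 to 0.47), Il12rb2 at 12 h (-0.049 to 0.61), Runx3 for Th2 against Th0 (-0.11 to 0.018) and the Il18rap slope (-0.0065 to 0.023, and -0.00081 per h with quantile normalization). After actinomycin, the Il27ra slope of 0.0986 per h was -0.0313 per h without the 4 h library. In all, 10 recomputed slopes moved by more than their spread, 8 of them without that library. This spread is the SD of a gene's slopes with 1 library left out in turn. Since the slopes judged also set that SD, the count cannot tell whether a move is large. The cause of these changes was not tested. Over all genes, quantile normalization gave 552 higher and 735 lower at 4 h (284 and 868 as reported), 1606 and 1436 at 12 h (1163 and 1787), 1857 and 1618 at 24 h (1389 and 1891), and 55 and 35 for the slope (74 and 28), and it moved the median of all genes at 24 h from -0.04 to 0.13, which turned no member's called direction. The number of genes called by the slope over all genes, 102, ranged from 22 without the 20 h libraries to 278 without those at 8 h, and at 4 h against rest it went from 1152 to 646 with a filter at 5 RPKM. Each time and condition was sequenced once from 1 pool, so no spread between replicate cultures or between mice could be estimated. The conditions were matched by time point in the fit, and the cultures carry no replicate numbers that could pair them otherwise.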
